A study of Rattus norvegicus with 12 samples.

Results

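The collagen and laminin genes measured in rat prefrontal cortex (PFC) were examined 2 h after the start of an acute footshock session. Members were chosen by name: probe sets with exactly 1 gene symbol, a collagen chain (Col, a number, a and a number) or a laminin chain (Lama, Lamb or Lamc and a number). A gene with several probe sets kept the one of highest mean over the 12 arrays, provided that this mean was above 4 on the log2 scale. The rule found 54 probe sets of 50 genes, 40 collagens and 10 laminins, and all 50 genes had a mean above 4. They stand among 14847 genes, or 16085 probe sets, tested in all. By the kind of matrix they build, 11 genes were fibrillar collagens, 18 were basement membrane members and 21 were other collagens. Col28a1, at a mean of 4.16, Col6a4, at 4.42, and Lama3, at 4.53, lay just above the level of 4, and 0 genes of the families lay below it. The median level was 5.20 over the members and 6.82 over all probe sets tested, and 3 members lay above the latter. A mean above 4 does not by itself show that a gene is expressed. Whether members of low level stood above background was not tested.

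The rats were adult male Sprague-Dawley animals. The 6 Stress rats received a 40 min session of inescapable footshock through the cage floor (0.8 mA, 20 min of actual shock, shocks 2 to 8 s apart) and went back to their home cages, and the 6 Control rats stayed undisturbed in theirs. All were killed 2 h after the session began, and the whole PFC was dissected without separating its subregions. RNA of each rat (250 ng) was hybridised to 1 Affymetrix Rat Gene ST array, a chip that measures each gene with probes along its transcript, so the 12 arrays are 12 animals and their number limits the precision.

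Collagens are proteins of 3 chains wound into a triple helix. Fibrillar collagens such as types I and III assemble into banded fibres, and in the brain they are found mainly in the meninges and around large vessels, where fibroblasts make them. Basement membranes are thin sheets under endothelium and pia, built on a network of type IV collagen and a network of laminins, which are trimers of 1 alpha, 1 beta and 1 gamma chain. Endothelial cells, pericytes and astrocytes all contribute to the basement membrane of brain vessels.

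The type IV collagen genes lie in pairs. Col4a1 and Col4a2, which make up the type IV collagen of most basement membranes, lie head to head on opposite strands of chromosome 16, and the RefSeq annotation of the GRCr8 assembly puts 76 bases between their start sites. Col4a3 and Col4a4 (412 bases on chromosome 9) and Col4a5 and Col4a6 (1414 bases on chromosome X) are arranged in the same way. The window from 250 bases before to 50 bases after the annotated start of Col4a1, chr16:84885347-84885646 on the plus strand, is shown because it holds the starts of both genes. Capitals mark the bases between the starts, of which 78.9% are G or C.
Col4a1 and Col4a2: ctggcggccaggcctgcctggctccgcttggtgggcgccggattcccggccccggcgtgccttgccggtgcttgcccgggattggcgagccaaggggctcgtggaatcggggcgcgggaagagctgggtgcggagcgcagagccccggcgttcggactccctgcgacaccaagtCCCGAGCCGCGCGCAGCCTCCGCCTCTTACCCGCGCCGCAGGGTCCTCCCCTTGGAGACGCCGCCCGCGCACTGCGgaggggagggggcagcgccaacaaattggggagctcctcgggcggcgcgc
The window of Col1a2, the alpha 2 chain of type I collagen and the fibrillar gene of largest spread, lies at chr4:33518307-33518606 on the plus strand. Capitals mark TATAAA, the letters of a TATA box, 170 bases before the annotated start, and ATTGG, the letters CCAAT read on the other strand, 221 bases before it.
Col1a2: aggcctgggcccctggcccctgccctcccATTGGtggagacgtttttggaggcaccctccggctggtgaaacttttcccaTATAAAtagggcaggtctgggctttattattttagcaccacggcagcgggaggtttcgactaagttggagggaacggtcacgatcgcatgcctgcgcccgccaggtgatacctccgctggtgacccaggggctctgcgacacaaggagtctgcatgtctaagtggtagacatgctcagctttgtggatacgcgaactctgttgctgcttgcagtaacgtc
A window was found for 42 of the 50 members. Searched on both strands, TATAAA was in 5 of the 42 and in 14.3% of all 27457 windows of this length, and CCAAT in 12 of the 42 and in 37.7% of all windows. GGGCGG, the letters of a GC box, was in 23 of the 42, in 11 of 17 basement membrane windows in 6 of 8 fibrillar windows and in 6 of 17 windows of other collagens, and in 34.9% of all windows. These are counts of letters and not of sites in use.

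Over the whole series, array medians lay between 5.485 and 5.537 and arrays correlated at 0.9941 to 0.9982 across probe sets. The dimmest probe sets, with a mean under 3.5, divided the arrays into a set of Control 1 to 4 and a set of Control 5, Control 6 and the 6 Stress rats. No label explains this division. The second set is called array set 2, and values within it are given for some of the class and list medians and some of the genes. Where none is given, nothing about that set is implied. Of the 50 members, 41 had a difference of the same sign there as over all arrays. Array set 2 holds 8 of the 12 arrays, so the compared differences share most of their values. The agreement in sign is therefore no separate check, and it was not counted over all probe sets. Of 10 markers of cortical excitatory neurons, 9 were measured, at levels of 6.05 to 11.87. Markers of neighbouring tissue varied between animals. The mean of 15 choroid plexus markers (of 16 listed), each centred on its mean over the arrays, reached 2.76 in Control 5, while the 11 remaining arrays lay between -0.35 and -0.10. The mean of 21 meningeal fibroblast markers (of 25 listed, none of them a collagen or laminin) ran from -0.27 to 0.40 in Control and from -0.43 to 0.44 in Stress. That of 17 striatal projection neuron markers (of 18 listed) ran from -0.42 to 0.75 in Control and from -0.44 to 0.53 in Stress. All 17 had the lower mean in Stress (median -0.36, 0 past the threshold), while 53% of all probe sets had the higher mean there. An unadjusted p under 0.05 was reached by 2 of the 17, against 6.35% of all probe sets. The part of striatal tissue in the matrix genes was not tested.

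The comparison of Stress with Control asked whether matrix genes differ in the PFC 2 h after acute stress began. No collagen or laminin gene passed the threshold, an adjusted p of at most 0.05 in limma over all 16085 probe sets, a threshold that 0.0435% of probe sets passed. An unadjusted p under 0.05 was reached by 1 of the 50 genes, Col13a1, against 6.35% of all probe sets (3.43% higher and 2.92% lower in Stress). With array set as a term 4 members did so, against 5.68%, and within array set 2 it was 2 members, against 6.57%, with 0 members and 0.00622% of probe sets past the threshold there. The mean was higher in Stress for 33 members and lower for 17, and 53% of all probe sets had the higher mean in Stress. The median log2 difference (Stress minus Control) was 0.02 over the members and 0.0039 over all probe sets tested. The absolute difference was above 0.1 for 4 members, Col6a1, Col14a1, Col13a1 and Lama4, against 11.8% of all probe sets. For 0 members did the 2 groups fail to overlap, against 0.441% of all probe sets. In tissue samples such as these, fewer cells of a type and less RNA per cell cannot be told apart.

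**Figure D1:**
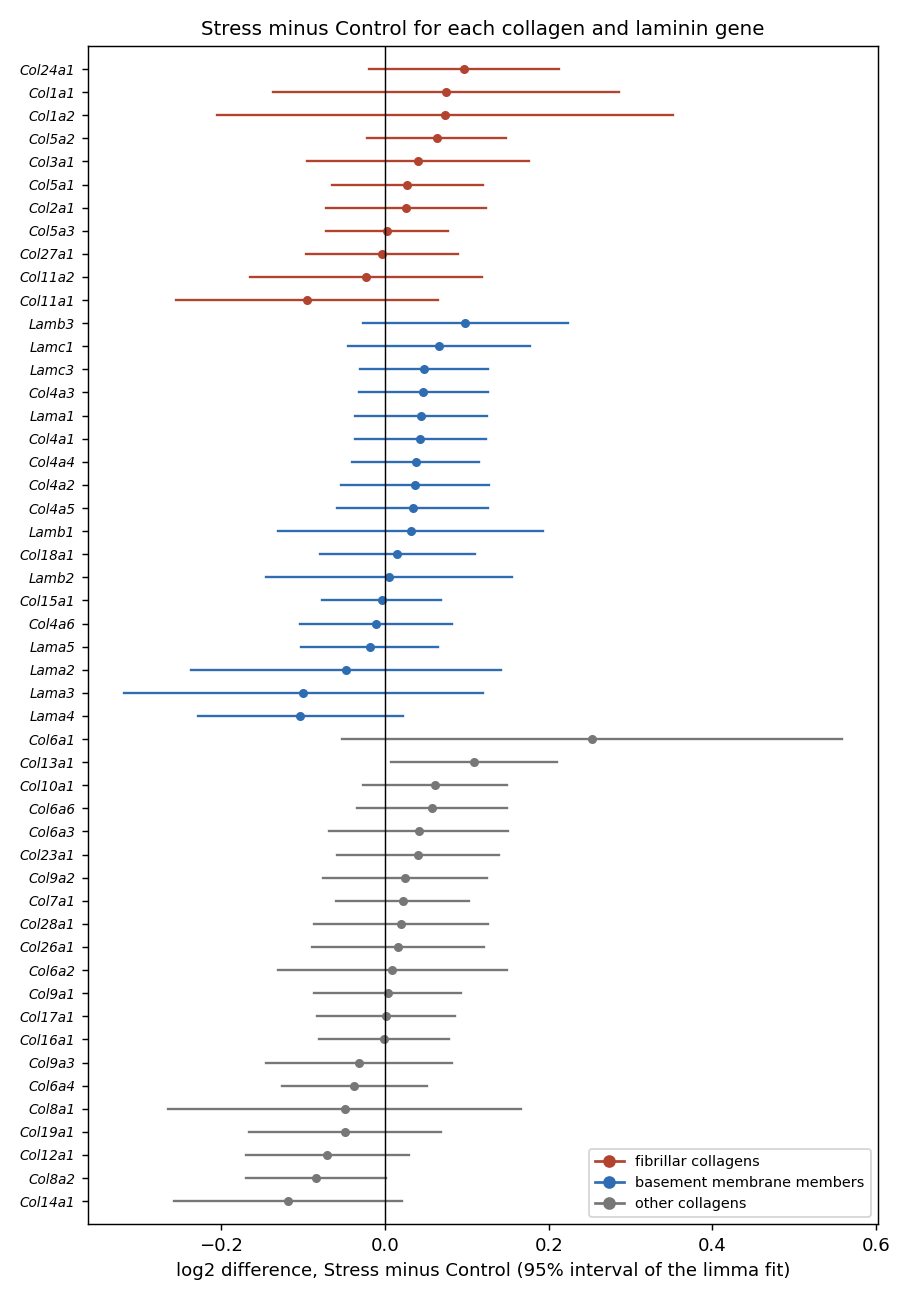
Log2 difference between Stress and Control (x axis, 6 rats a group) for each of the 50 genes, with the 95% interval of the limma fit as a bar. Colours give the fibrillar, basement membrane and other collagens, and the interval of 1 gene, Col13a1, does not cross 0.

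Type I collagen, the main protein of meningeal and vascular fibres, differed between animals more than between groups. Col1a1, its alpha 1 chain, lay between 6.48 and 6.74 in Control (median 6.67) and between 6.29 and 6.97 in Stress (median 6.74). Both extremes were Stress animals, Stress 1 the lowest and Stress 2 the highest, so the Control values lay inside the Stress range. The means were 6.64 ± 0.11 and 6.71 ± 0.25 (SD, n = 6 each), a difference of 0.07 with a 95% interval of -0.14 to 0.29 (adjusted p = 0.948 in limma). Col1a2 lay between 6.22 and 6.84 in Control (median 6.59) and between 6.23 and 6.97 in Stress (median 6.70), with a difference of 0.07 (interval -0.21 to 0.35, adjusted p = 0.959). Stress 2 was again the highest, and Control 1 and Stress 1 were the lowest. Within array set 2, with 2 Control rats, the differences were -0.01 for Col1a1 and -0.05 for Col1a2.

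The other fibrillar chains gave smaller ranges. Col3a1, the single chain of type III collagen that accompanies type I in soft tissue, lay between 4.93 and 5.19 in Control (median 5.04) and between 4.89 and 5.28 in Stress (median 5.11), and the groups overlapped over most of their range. Its difference was 0.04 (interval -0.10 to 0.18, adjusted p = 0.955 in limma), and 0.09 within array set 2. Type V collagen starts fibrils and limits their width. Its chains Col5a1 and Col5a2 differed by 0.03 and 0.06 (adjusted p = 0.955 and 0.842), and Col5a3 by 0.002. Col24a1, a minor fibrillar collagen, had the largest difference of the class at 0.10 (interval -0.02 to 0.21, adjusted p = 0.819). Its Control values ran from 5.21 to 5.504 with a median of 5.29 and its Stress values from 5.30 to 5.54 with a median of 5.45. Within array set 2 it was 0.04. Of the 4 members with a second probe set, Col24a1 gave 0.10 there also (adjusted p = 0.840) and Col4a2 gave 0.06 against 0.04, while the sign turned for Lama2 (0.03 against -0.05, r between the probe sets 0.35) and for Col19a1, a fibril-associated collagen (0.02 against -0.05, r = -0.15). Col11a1, a chain of type XI collagen known from cartilage, was at -0.10 (interval -0.26 to 0.06, adjusted p = 0.879), and Col11a2, another chain of that type, at -0.02 over all arrays and 0.15 within array set 2. In all, the mean of 8 of the 11 fibrillar genes was higher in Stress, against 53% of all probe sets. An unadjusted p under 0.05 was reached by 0 of the 11, against 6.35% of all probe sets, a share too small to tell from 0 in so few genes. The median difference was 0.03 (0.07 within array set 2, where the median over all probe sets was -0.0034).

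**Figure D2:**
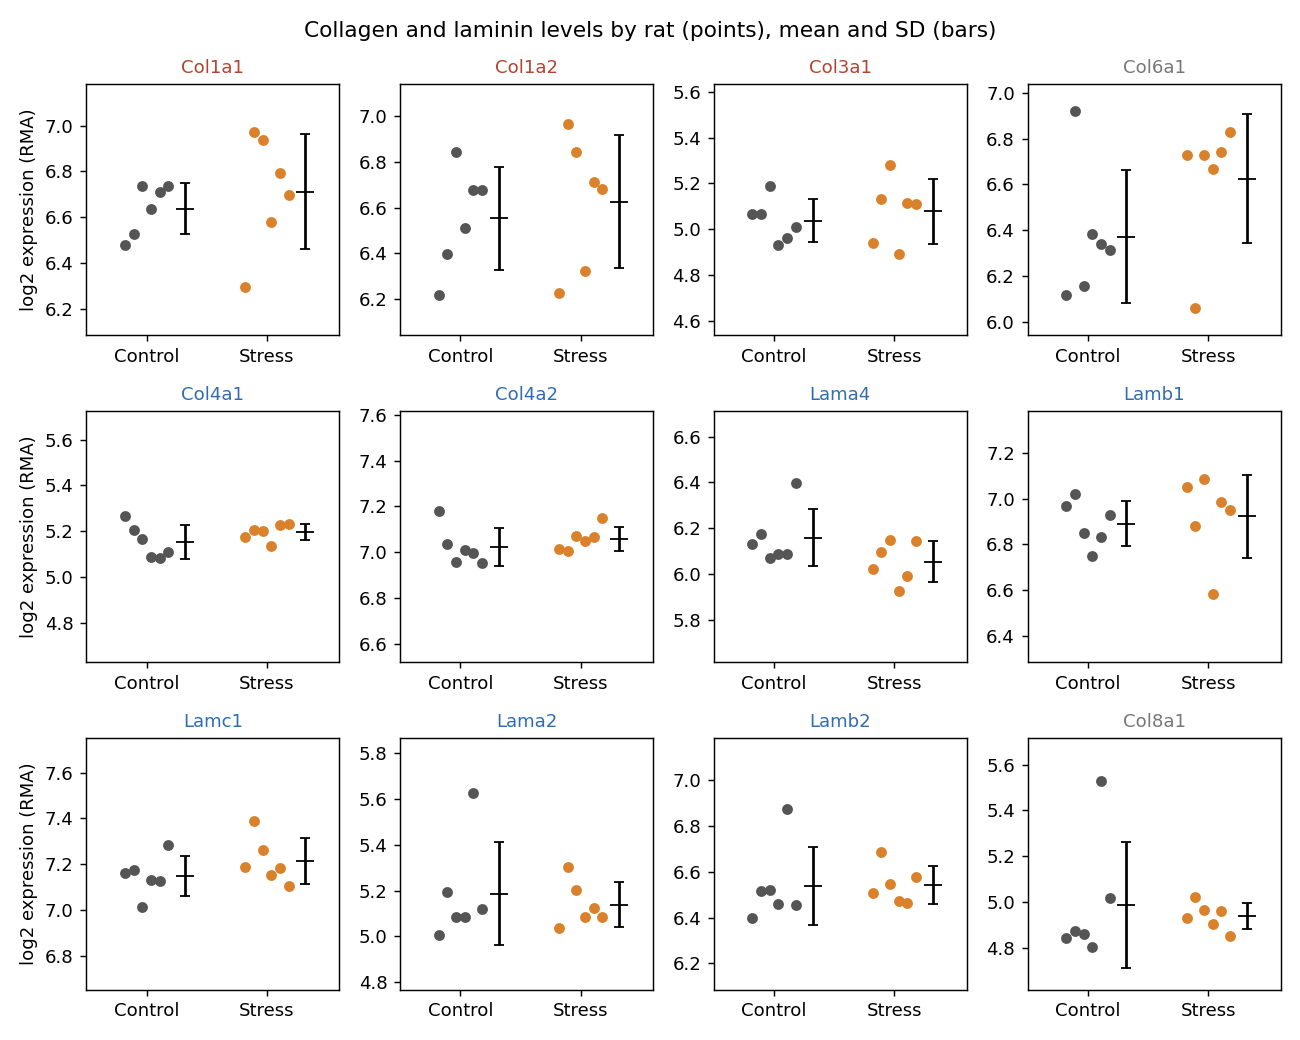
Log2 expression of 12 collagen and laminin genes, 1 point a rat, with the mean and SD of each group of 6 as a bar beside the points. All panels span the same number of log2 units, and each gene has overlapping groups. In Col4a2, Lama2, Lamb2, Lama4 and Col8a1, 1 Control array lies far from the other Controls, and in Col6a1 1 array of each group does so.

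Among basement membrane members the mean was higher in Stress for 12 of 18, against 53% of all probe sets, and the median difference was 0.03 (0.01 within array set 2). An unadjusted p under 0.05 was reached by 0 of the 18, against 6.35% of all probe sets. Of the 6 type IV chains, 5 had the higher mean in Stress. Col4a1 lay between 5.08 and 5.27 in Control (median 5.14) and between 5.13 and 5.23 in Stress (median 5.20), with all Stress values inside the Control range. Its difference was 0.04 (interval -0.04 to 0.12, adjusted p = 0.897 in limma). Within array set 2 it was 0.10, with an unadjusted p of 0.0428 in limma. The Control animals of that set (numbers 5 and 6) were at 5.08 and 5.11, below each of the 6 Stress values. Col4a2 lay between 6.95 and 7.18 in Control (median 7.003) and between 7.004 and 7.15 in Stress (median 7.06), and Control 1 held the highest value. The difference was 0.04 (interval -0.05 to 0.13, adjusted p = 0.937), and 0.08 within array set 2. Col4a3, Col4a4 and Col4a5, the chains known from kidney and lung basement membranes, were at 0.05, 0.04 and 0.03, and Col4a6 was at -0.01. Col15a1 and Col18a1, collagens of vascular basement membranes of which the latter is the source of endostatin, differed by -0.0043 and 0.01.

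The laminin alpha chains, which carry the binding sites for cell receptors, had the lower mean in Stress for 4 of 5, with a median difference of -0.05 over all arrays and -0.19 within array set 2. Lama4, the chain known from endothelial basement membranes, lay between 6.07 and 6.40 in Control (median 6.11) and between 5.93 and 6.15 in Stress (median 6.06). Control 6 stood alone at 6.40, and the other 5 Controls, up to 6.17, overlapped the Stress values. The difference was -0.10 (interval -0.23 to 0.02, adjusted p = 0.819 in limma), -0.06 without Control 6 and -0.19 within array set 2, which holds that array. Lama5, the other main endothelial alpha chain, was at -0.02 (interval -0.10 to 0.065, adjusted p = 0.969). Lama2, the chain of muscle and of the astrocyte side of brain vessels, lay between 5.01 and 5.63 in Control (median 5.10) and between 5.04 and 5.30 in Stress (median 5.10), with a difference of -0.05 (adjusted p = 0.960) and -0.24 within array set 2. Lama3, which belongs to the laminin of skin and other epithelia, lay between 4.28 and 5.06 in Control (median 4.53) and between 4.39 and 4.53 in Stress (median 4.49), with a difference of -0.10 (adjusted p = 0.925) and -0.25 within array set 2. Control 5, 1 of the 2 Controls of that set, was the highest array for both. Lama1, the alpha chain of early embryonic basement membranes, was at 0.04, and at -0.0042 within array set 2.

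All 3 beta and both gamma chains had the higher mean in Stress, none past the threshold. Lamb1 and Lamc1 are the most widely used beta and gamma chains. Lamb1 lay between 6.75 and 7.02 in Control (median 6.89) and between 6.58 and 7.08 in Stress (median 6.97), with Stress 4 at 6.58 below all other arrays and a difference of 0.03 (interval -0.13 to 0.19, adjusted p = 0.971 in limma). Lamc1 lay between 7.01 and 7.28 in Control (median 7.15) and between 7.11 and 7.39 in Stress (median 7.19), with a difference of 0.07 (interval -0.05 to 0.18, adjusted p = 0.882) and 0.0093 within array set 2. Stress 2 was the highest and Control 3 the lowest array for Lamc1, and the groups overlapped. Lamb2, a beta chain of synaptic and vascular laminins, lay between 6.40 and 6.87 in Control (median 6.49) and between 6.46 and 6.69 in Stress (median 6.53), with a difference of 0.0048 (interval -0.15 to 0.16, adjusted p = 0.996). Control 5 held its highest value, and the difference within array set 2 was -0.12. Lamb3, the partner of Lama3 in epithelial laminin, was at 0.10 (interval -0.03 to 0.22, adjusted p = 0.839), with Control 3 at 4.34 below the other 11 arrays, at 0.05 without that array and at 0.06 within array set 2. Lamc3, a gamma chain found on some epithelia and vessels, was at 0.05.

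Markers of vessel cells were set beside the basement membrane genes. Of 17 endothelial markers measured, 7 had a higher and 10 a lower mean in Stress, with a median of -0.13. 7 of the 17 had an unadjusted p under 0.05 and 0 passed the threshold. Over all probe sets 6.35% had such a p. Their mean ran from -0.02 to 0.10 in Control and from -0.10 to 0.02 in Stress. Slc2a1, higher in Stress by 0.25 (adjusted p = 0.137 in limma), was the 1 endothelial marker whose groups did not overlap, against 0.441% of all probe sets. Of 12 mural cell (pericyte and smooth muscle) markers, 6 were higher and 6 lower, with a median of 0.0045 and a mean between -0.06 and 0.07 in both groups. Pdgfrb was the 1 mural marker with an unadjusted p under 0.05 and the 1 without overlap of the groups. It lay between 7.28 and 7.51 in Control and between 7.08 and 7.26 in Stress (-0.20, adjusted p = 0.239 in limma). Blood cell markers were lower in Stress for all 8 measured, with a median of -0.69. Of these 7 had an unadjusted p under 0.05 and 0 passed the threshold. The part of vessel and blood content in the matrix genes was not tested.

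The remaining 21 collagens included the member of largest difference. Col6a1, the alpha 1 chain of the beaded type VI filaments that surround cells and vessels, lay between 6.12 and 6.92 in Control (median 6.32) and between 6.06 and 6.83 in Stress (median 6.73). A single animal of each group crossed over: 5 Stress rats lay between 6.67 and 6.83 and Stress 2 at 6.06, while 5 Control rats lay between 6.12 and 6.38 and Control 2 at 6.92. The difference was 0.25 (a fold of 1.19, interval -0.05 to 0.56, adjusted p = 0.819 in limma). It was 0.36 without Control 2 (adjusted p = 0.608) and 0.37 without Stress 2 (adjusted p = 0.661). Each of these leaves out the animal that crossed over. With each array left out in turn it ran from 0.20 to 0.37. Within array set 2 it was 0.30 (unadjusted p = 0.112 in limma). The partner chains of Col6a1 in the same filaments, Col6a2 and Col6a3, were at 0.009 and 0.04 (-0.03 and -0.01 within array set 2). Col6a4 and Col6a6, chains that can take the place of alpha 3, were at -0.04 and 0.06. Stress 2, the lowest array for Col6a1, was the highest for Col6a2 (5.75).

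Col13a1 is a transmembrane collagen known from the neuromuscular junction. It lay between 4.79 and 4.95 in Control (median 4.89) and between 4.88 and 5.11 in Stress (median 4.95). Stress 1 and Stress 6 lay at 5.11, above every Control, while Stress 3 lay below the Control median. The difference was 0.11 (SE 0.05, unadjusted p = 0.0379 and adjusted p = 0.757 in limma). Within array set 2 it was 0.08 (unadjusted p = 0.294). The other transmembrane chains, Col17a1 of hemidesmosomes and Col23a1, were at 0.0009 and 0.04.

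Col14a1, a collagen that sits on the surface of fibrils, lay between 4.67 and 5.01 in Control (median 4.88) and between 4.63 and 4.92 in Stress (median 4.74), with a difference of -0.12 (interval -0.26 to 0.02, adjusted p = 0.819 in limma). Of the 7 fibril-associated collagens, 5 had the lower mean in Stress, and the median was -0.03. Col8a1 and Col8a2 form the hexagonal type VIII network of corneal and vessel wall matrix. Col8a2 lay between 4.80 and 4.98 in Control (median 4.90) and between 4.75 and 4.91 in Stress (median 4.79), with a difference of -0.08 (interval -0.17 to 0.0011, adjusted p = 0.793). Col8a1 lay between 4.80 and 5.53 in Control (median 4.87) and between 4.85 and 5.02 in Stress (median 4.95). Control 5 stood at 5.53, with the next Control at 5.02. The Col8a1 difference was -0.05 over all arrays, 0.06 without Control 5, and -0.34 within array set 2, where Control 5 is 1 of 2 Controls and the unadjusted p was 0.0117.

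The spread between animals was described for each class without a test. The median SD within groups was 0.10 log2 units for the fibrillar collagens, 0.07 for basement membrane members, 0.08 for the other collagens and 0.08 for all probe sets tested. For 22 of 50 members it was above that last value. Over probe sets with a mean between the lowest and the highest member the median SD was 0.0906. The 6 type IV chains were within 0.05 to 0.07. The 5 largest SDs belonged to Col6a1 (0.286), Col1a2 (0.261), Lama3 (0.203), Col8a1 (0.199) and Col1a1 (0.195), all beyond the 95th percentile of the probe sets tested. Among probe sets of like level, Col6a1 was at percentile 96.8, Col1a2 at 96.5, Lama3 at 96.9, Col8a1 at 94.6, Col1a1 at 92.6 and Col4a1 at 9.44. Without Control 5, the SD of Col8a1 was 0.0698, that of Lama2 0.0858 in place of 0.173, and that of Col1a2 0.271.

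**Figure D3:**
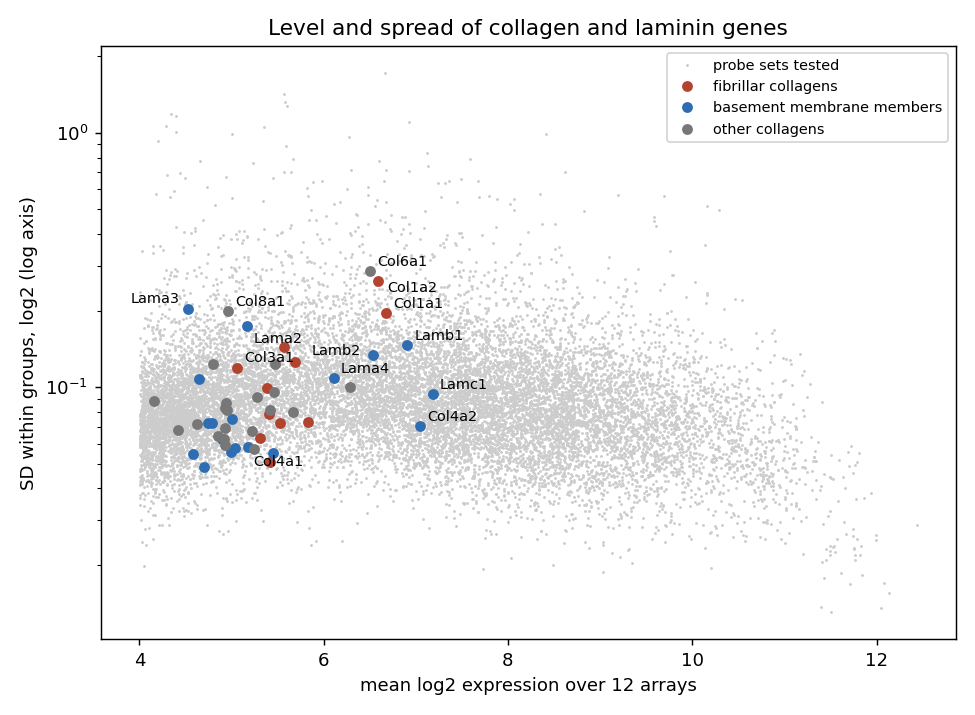
SD within groups of 6 rats (y axis, log scale) against the mean log2 level over 12 arrays (x axis) for the 16085 probe sets tested, with the 50 members in colour. Col6a1, Col1a2, Lama3, Col8a1 and Col1a1 lie at the top of the members, and the SD of Col4a2 is 0.0701.

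The wide spread of type I collagen was shared by its chains. Across the 12 arrays Col1a1 and Col1a2 had a Pearson r of 0.93 and a Spearman rho of 0.96 (permutation p = 1e-05, the smallest that the permutations can give, adjusted over 5 pairs to 5e-05). With group means removed r was 0.93, within array set 2 it was 0.95 (exact permutation p = 0.000124, n = 8), and without Stress 1 and Stress 2, the arrays farthest from the median, 0.91. Col3a1 followed Col1a1 less closely, at an r of 0.63 and a rho of 0.70 (permutation p = 0.0268, adjusted 0.0447). Without Stress 1 and Stress 2 that r was 0.59 with an adjusted p of 0.0893 by permutation, and it no longer passed when any 1 Stress array was left out (r from 0.52 without Stress 3 to 0.64). The head-to-head genes Col4a1 and Col4a2 had an r of 0.72 and a rho of 0.73 (permutation p = 0.00724, adjusted 0.0181), which was 0.79 without Control 4 and Control 5 and 0.70 within array set 2 (exact permutation p = 0.0469, adjusted 0.0586, n = 8). Col3a1 and Col4a1, a fibrillar and a basement membrane gene, had an r of 0.57 and a rho of 0.51 (adjusted permutation p = 0.0675). Col1a2 and Dcn, the gene of the collagen-binding proteoglycan decorin, had an r of 0.48 and a rho of 0.35 (adjusted permutation p = 0.115), which was 0.78 within array set 2 (adjusted exact permutation p = 0.0471, n = 8) with a rho of 0.48 (adjusted 0.243).

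The level of meningeal markers moved with type I collagen. Mean centred Col1a1 and Col1a2 was highest in Stress 2 (0.34), where the meningeal marker mean was also highest (0.44), and lowest in Stress 1 (-0.37), where that mean was lowest (-0.43). Over the 12 arrays r with the marker mean was 0.85 for Col1a1 (rho 0.89) and 0.88 for Col1a2 (rho 0.86), with permutation p adjusted over 5 genes of 0.0017 and 0.001. This comparison and its 5 genes were chosen after the values of these same arrays were seen. The p-values for it are therefore a description and not a planned test. Without Stress 1 and Stress 2 r was 0.68 for Col1a1 (adjusted permutation p = 0.072) and 0.79 for Col1a2 (0.0339), while rho was 0.81 and 0.77 (adjusted permutation p = 0.0306 for both). Within array set 2 r was 0.81 and 0.86 (adjusted exact permutation p = 0.0316 for both, n = 8), with rho at 0.83 and 0.69 (adjusted 0.0769 and 0.173). The other collagens of this family of 5 gave 0.40 for Col3a1 (rho 0.57), -0.25 for Col5a1 (rho -0.29) and -0.22 for Col4a1 (rho -0.22), with adjusted permutation p of 0.337, 0.485 and 0.485. Without Control 5, r for Col3a1 was 0.62 (adjusted permutation p = 0.0676) and its rho 0.75 (adjusted 0.0193). The difference between these correlations was not tested. The other 7 fibrillar genes were not compared with the markers. With the marker mean as a covariate the difference between Stress and Control was 0.09 for Col1a1 and 0.10 for Col1a2 (adjusted p = 0.804 and 0.833 in limma).

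**Figure D4:**
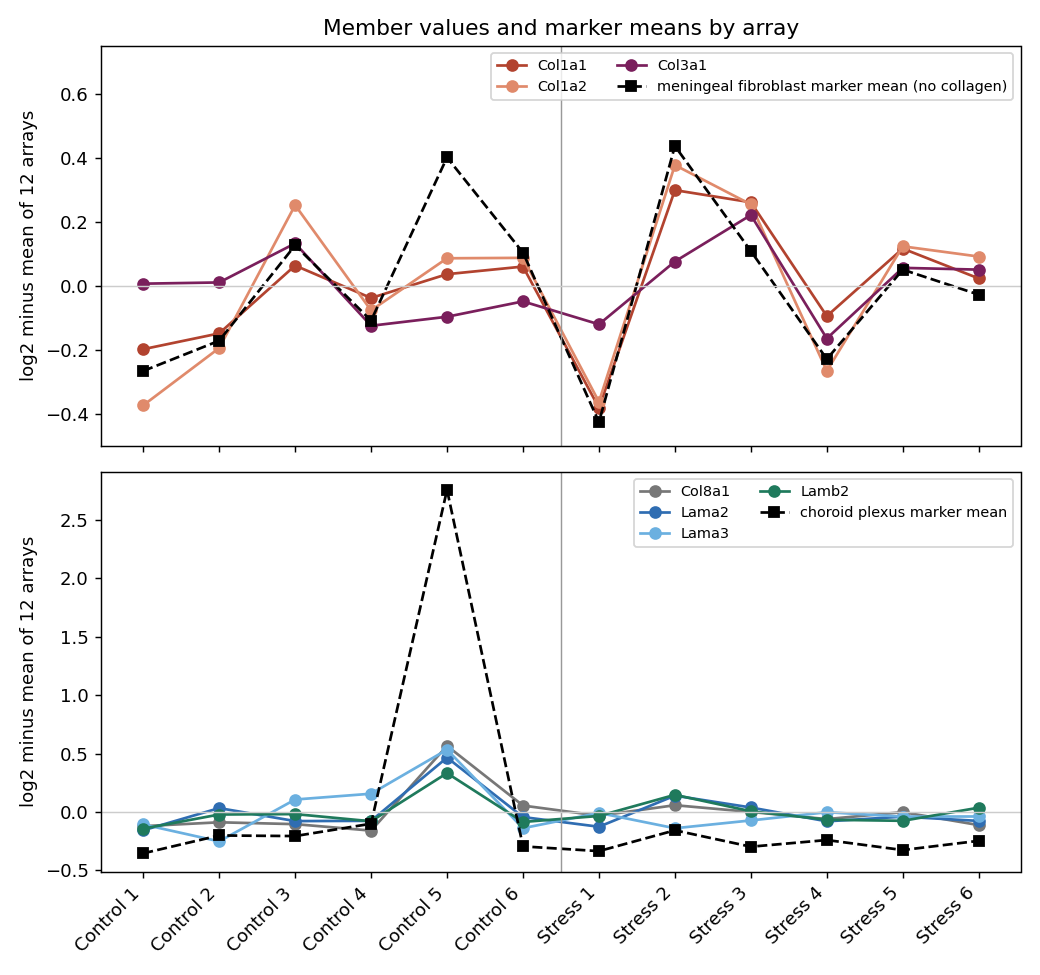
Log2 values of each of the 12 arrays minus the mean over arrays, for Col1a1, Col1a2 and Col3a1 with the mean of 21 meningeal markers (top), and for Col8a1, Lama2, Lama3 and Lamb2 with the mean of 15 choroid plexus markers (bottom). Col1a1, Col1a2 and the meningeal markers share their highest array, Stress 2, Stress 1 is the lowest for Col1a1 and the markers and Control 1 for Col1a2, and Control 5 is at 2.76 for the choroid plexus markers and highest for the 4 genes below.

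A second set of members was high in 1 animal. Control 5, the array of choroid plexus marker mean 2.76, was the highest array for 5 members, Lama2 (5.63), Lama3 (5.06), Lama5 (4.97), Lamb2 (6.87) and Col8a1 (5.53), where single arrays were highest for 1 to 9 members. The next Control value was 5.20 for Lama2, 4.68 for Lama3, 4.96 for Lama5, 6.52 for Lamb2 and 5.02 for Col8a1, so for Lama5 it was nearly as high. Stress 2, the array of highest meningeal marker mean (0.44), came next for Lama2 (5.30) and Lamb2 (6.69), above the other Controls. Control 5 itself had a meningeal marker mean of 0.40, below Stress 2 only. The markers on that list were uneven there. Slc13a4 was at 8.24 (mean 6.68 over the arrays) and Fmod at 6.43 (mean 4.94). Foxc1 was at 5.88 (mean 5.92), and Aldh1a1, at 5.20, had its lowest value of all arrays. Mean centred Col1a1 and Col1a2 was 0.06 in Control 5. Control 5 also had the highest striatal (0.75) and endothelial (0.10) marker means. Without Control 5 the differences between Stress and Control were 0.04 for Lama2, -0.0031 for Lama3, 0.07 for Lamb2 and 0.06 for Col8a1, none past the threshold in limma. With the choroid plexus marker mean as a covariate they were 0.05, 0.0049, 0.08 and 0.07 in the same order. With the meningeal marker mean as a covariate the SD within groups was 0.122 for Lama2, in place of 0.173. For Lamb2 it was 0.098, in place of 0.134. For Col8a1 it was 0.164, in place of 0.199, and for Lama3 0.2005, in place of 0.203. Which tissue the high values came from was not tested.

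Genes whose values over the 12 arrays were most like the mean of each class were listed as a description among 14797 genes. For the fibrillar mean they were Hcar1 (r = 0.91), Slc16a11 (0.86), Srpx (0.86), Gng14 (0.82), Ccl7 (0.81), Pcdhb4 (0.80), Sdr42e1 (0.80), Rnf186 (0.79), Trim71 (0.78) and Tra2a (0.78), and 0 of the 10 were on the meningeal list. For the basement membrane mean they began with Rgs5 (r = 0.90), a marker of pericytes, and Tns1 (0.90), the gene of the focal adhesion protein tensin 1. They went on with L3mbtl2 (0.87), C5h1orf50 (0.87), Ttll4 (0.86), Hgfac (0.84), Unc119 (0.83), Nudt7 (0.83), Cmtm8 (0.82) and Foxs1 (0.82). The mural marker mean, which includes Rgs5, was highest in Stress 2 (0.07), where the basement membrane mean was 0.0062. In Control 5, where the basement membrane mean was highest (0.06), the mural marker mean was 0.0041. The highest r among 14797 genes over 12 arrays are large in part by selection. The points share their array, its RNA and its normalization.

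The genes that act on collagens and laminins were counted over 6 lists, and 0 genes of any list passed the threshold. Of 21 genes for chain processing, 15 had the higher mean in Stress (median 0.05, and 0.0067 within array set 2) and 3 had an unadjusted p under 0.05, against 6.35% of all probe sets: P4ha2 (0.16, adjusted p = 0.321 in limma) and P4ha1 (0.14, adjusted p = 0.741), catalytic subunits of prolyl hydroxylase, which stabilises the triple helix, and Plod1 (0.11), a lysyl hydroxylase. Of 6 crosslinking enzymes 5 were higher (median 0.04, and -0.01 within array set 2), among them Loxl2 (0.13, adjusted p = 0.740) and Loxl4 (0.10, adjusted p = 0.840). Loxl2 was the 1 crosslinking enzyme with an unadjusted p under 0.05. Of 12 other basement membrane components 5 were higher (median -0.0027, and -0.04 within array set 2). Tinagl1, a secreted basement membrane glycoprotein, had the largest difference of the 6 lists, 6.62 ± 0.24 in Control and 7.17 ± 0.22 in Stress (SD, n = 6 each; 0.55, adjusted p = 0.197 in limma, 0.44 within array set 2). Sparc, a collagen-binding matrix protein, was at -0.12 (adjusted p = 0.840). Tinagl1 was the 1 component of the 12 with an unadjusted p under 0.05.

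Receptors and proteases also held 0 genes past the threshold. An unadjusted p under 0.05 was reached by 1 of 16 receptors, Itga11, and by 2 of 16 proteases and inhibitors, Mmp16 and Mmp14. In the list of transforming growth factor beta signalling it was reached by 2 of 11 genes, Ccn2 and Tgfbr1, against 6.35% of all probe sets. Of 16 matrix receptors 8 were higher and 8 lower (median 0.0077, and -0.05 within array set 2). Itga11, the alpha subunit of a collagen-binding integrin, was at 4.94 ± 0.07 in Control and 5.13 ± 0.05 in Stress (SD, n = 6 each; 0.19, adjusted p = 0.173 in limma), and was the 1 receptor whose groups did not overlap, against 0.441% of all probe sets. Itga2, a subunit of another collagen-binding integrin, was at -0.07 (adjusted p = 0.879). Of 16 proteases and inhibitors 6 were higher (median -0.01, and -0.07 within array set 2), with Mmp16 at 0.18 (adjusted p = 0.373) and Mmp14 at -0.22 (adjusted p = 0.406), both membrane-bound matrix metalloproteinases. Of 11 genes of transforming growth factor beta signalling, which drives matrix synthesis in fibroblasts, 7 were higher (median 0.02, and -0.003 within array set 2), with Ccn2, a matricellular target, at 0.31 (adjusted p = 0.397) and Tgfbr1, a receptor, at -0.11 (adjusted p = 0.742).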

How the data were processed

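Expression was measured in the PFC of 12 rats, grouped by the sample labels. Each deposited value is a log2 expression level of a probe set, which the authors computed by RMA in oligo 1.58.0, which corrects background, normalizes all arrays to 1 distribution and summarises the probes. A shift common to most genes is therefore removed, and changes of dim probe sets are understated. Array data carry no read depth.

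Gene names came from the platform annotation: 18644 of 29214 had exactly 1 symbol, 962 several and 9608 were not listed. Symbols were updated through a RefSeq table (GRCr8) for 99.0%. Of the collagen and laminin genes, 4 had 2 probe sets, of which the brighter was kept, and 2 probe sets with several symbols were left out. The annotation's genome build was not used. Promoter sequences came from RefSeq.

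Stress and Control were compared by a limma fit with eBayes (limma 3.58.1 under R 4.3.3), two-sided, with group as the only term, on the 16085 single-symbol probe sets with a mean above 4. Benjamini-Hochberg adjustment of p ran over all of them. Intervals are 95% intervals of that fit. Correlations were tested by permutation (100000 resamples, exact for 8 arrays) in numpy (version 2.4.6), with ranks for rho from scipy (version 1.17.1). Where a single permutation p stands beside both r and rho, it is that of r. The script was tested on simulated data.

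Members, classes, marker lists and pathway lists were chosen with earlier results of these data known. Genes named were those known for these matrices, the 2 members of largest difference and the 2 of smallest p of each class, the 5 of largest SD, the 3 of highest level (Lamc1, Col4a2, Lamb1), those nearest the level of 4, the 2 of smallest p of each pathway list and the 10 genes most like each class mean. Members and genes beyond that rule were named after their values were seen. Alternatives changed the filter, the probe sets tested, the moderation, array weights, replicate block, array set, marker covariates, normalization and each array in turn.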

Additional observations from a re-analysis of the deposited data

Results flagged for a closer look

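Each group of 6 rats was searched for a value whose gap to the nearest other value was past Dixon's 95% critical value for 6 samples, as a share of the group's range. This was done for the 24 members named by rule, 48 groups in all, and 8 groups held such a value. Chance gives about 1 in 20 groups of genes not chosen by their values, but some of the 24 were named for a large spread or difference, so the 8 cannot be set against that rate.

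In Control 5, the array of highest choroid plexus marker mean, Lama2 was at 5.63, Lamb2 at 6.87 and Col8a1 at 5.53, each above the other 5 Controls. Col6a1 was at 6.92 in Control 2, above the other Controls, and at 6.06 in Stress 2, below the other Stress rats. Col4a2 was at 7.18 in Control 1, Lama4 at 6.40 in Control 6 and Lamb3 at 4.34 in Control 3, the last below the other Controls. What set these arrays apart for Col6a1, Col4a2, Lama4 and Lamb3 was not tested.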

How the results depend on the processing

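Under every alternative run, 0 members passed the threshold. The count of members with an unadjusted p under 0.05, 1 in the fit as reported, was 2 with no level filter, 0 with a mean above 5, 0 with array weights, 2 after a second quantile normalization, 4 with array set as a term, 2 within array set 2, and 0 to 4 with each array left out. The count of probe sets past the threshold, 7 in the fit as reported, was 1 with array set as a term, 1 within array set 2, 13 with the meningeal marker mean as a covariate, and 4 to 8 with each array left out. The cause was not tested.

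Differences near 0 changed sign. Lamb2 was at -0.0005 with array weights, -0.0042 after a second normalization, -0.12 with array set as a term or within array set 2, and -0.0242 to 0.0719 with each array left out. Under both array set alternatives Col1a1 was at -0.011 and Col1a2 at -0.0504. These alternatives give 1 and the same difference, since the other set holds only Controls and the comparison rests on Control 5 and Control 6. With the choroid plexus marker mean as a covariate Col28a1 was at -0.0066, Col8a1 at 0.0651, Lama2 at 0.048 and Lama3 at 0.0049. With each array left out, Col28a1 ran from -0.0087 to 0.0439, Col8a1 from -0.0862 to 0.059, Lama2 from -0.0845 to 0.0401, Col3a1 from -0.0004 to 0.0768 and Lamb1 from -0.001 to 0.10.

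The r of Col1a1 and Col3a1 no longer passed with group means removed (0.62), without the 2 farthest arrays (0.59) and without the array of highest meningeal marker mean (0.63), and ran from 0.52 to 0.68 with each array left out. It also failed when any 1 Stress array was left out. That of Col4a1 and Col4a2 did not pass within array set 2 (0.70), and that of Col1a2 and Dcn passed there (0.78) and without Control 1, and ran from 0.28 to 0.62. That of Col3a1 and Col4a1 ran from 0.50 to 0.65 and passed without Control 1 or Control 3. The r of Col4a1 with the meningeal marker mean was 0.0134 without Control 5 and ran down to -0.368 with other arrays left out.

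Same-numbered Stress and Control arrays deviated with correlations of -0.14 to 0.42, over 0.1 for 4 of 6 numbers. Since this did not hold for all 6, and no label ties the numbers, they were not taken to pair the samples. For 3 of 6 numbers the array correlated best with its own, which is a hint from the data and not the design. With the replicate block 3 members had an unadjusted p under 0.05 and 6 probe sets passed the threshold.

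The array set, its use in the fits and the correlations with the meningeal marker mean were chosen after seeing the data. The split planned first, on the first principal component of dim probe sets, set Control 1 alone apart and so equals leaving it out.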
